A study of Mus musculus with 2 samples.

Results

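Foxp3-positive T cells, called Tregs here, were selected barcode by barcode from the unfiltered single-cell RNA-seq matrices of immune cells sorted from mouse melanomas. A unique molecular identifier (UMI) marks one captured RNA molecule, and a barcode was kept with at least 2000 UMIs, at least 500 detected genes and at most 10% of UMIs from mitochondrial genes. A Treg was a kept barcode with at least 2 UMIs of the CD3 genes Cd3d, Cd3e and Cd3g together and at least 1 UMI of Foxp3. It also had no UMI of the CD8 genes Cd8a and Cd8b1, of the macrophage gene Csf1r or of the NK gene Ncr1. This rule found 480 Tregs among 17144 kept barcodes, 313 of 8724 in the wild-type (WT) library and 167 of 8420 in the library labelled Siah2-/-. The levels of Foxp3, CD3, Cd8a, Cd8b1, Csf1r and Ncr1, the UMI totals, the gene numbers and the mitochondrial shares of the members were fixed by the rule and are given as description.

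Both libraries came from male C57BL/6 mice injected subcutaneously at 8 weeks of age with YUMMER1.7 cells, an immunogenic BRAF-mutant mouse melanoma line, and tumors were taken 11 days after injection. The hosts were WT or carried a deletion of Siah2 in the whole animal, so that every host cell lacked the gene, while the injected melanoma cells were the same in both groups. Sorted CD45-positive cells were mixed with a smaller part of CD45-negative cells, in proportions that differ between the sources used here, and were captured with the 10x 3′ v2 chemistry. There was 1 library per genotype and the number of tumors in each was not stated in the labels or methods, so genotype, tumor, sort and library cannot be told apart. No test between genotypes was possible, no p-value is given, and every interval (95%, exact unless named otherwise) covers counting error only. UMIs of the same cell are not independent, and the intervals do not account for that.

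Tregs are CD4 T cells that restrain other immune cells, and the transcription factor Foxp3 keeps their program in place. They take up IL-2 through Il2ra (CD25), compete for costimulation through Ctla4 and often carry the transcription factor Ikzf2 (Helios). In tumors they are frequently in an activated or effector state, with the cytokine IL-10, granzyme B or the receptor Klrg1, and part of them divide. Siah2 is a RING-type ubiquitin ligase that marks bound proteins for degradation.

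The libraries held 98517832 UMIs (WT) and 85396790 UMIs (Siah2-/-). No Treg barcode was shared between them, although 90 kept barcodes were. Most Tregs were small in captured RNA. Median UMIs were 3247 in WT (quartiles 2586 and 4479) and 3752 in Siah2-/- (quartiles 3170 and 5068), and median detected genes were 1375 and 1567. The largest Treg had 37100 UMIs in WT and 58755 in Siah2-/-, which was 2.69% and 7.28% of all Treg UMIs of its library. The authors' own cell table started at 6670 UMIs for WT and at 4896 for Siah2-/- and contained 45 WT and 46 Siah2-/- members, so that 268 and 120 members lay under the minimum of their library. Below, Tregs with fewer than 4896 UMIs are called small (242 WT and 120 Siah2-/-) and the others large (71 and 47). Median UMIs of the large Tregs were 7245 in WT and 5955 in Siah2-/-, so that even within this class depth differed between the libraries.

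The rule cut through a continuous range. Exactly 1 Foxp3 UMI was seen in 125 WT and 53 Siah2-/- members, and 5 or more in 16 and 21. Below 2200 UMIs there were 22 and 7 members, while 67 and 11 barcodes from 1000 to below 2000 UMIs met every other condition. At the CD3 limit, 2 and 4 members had exactly 2 UMIs, and 5 and 2 Foxp3-positive barcodes had 1. Of all kept barcodes with CD3 and Foxp3 (506 and 334), 114 and 103 were left out for a CD8 UMI, 107 and 85 for Csf1r and 17 and 29 for Ncr1. A Cd4 UMI, which the rule did not ask for, was present in 151 WT and 90 Siah2-/- members.

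The other 3 Treg markers were higher in the members than in other T barcodes. Ikzf2 was at 1146 CPM (UMIs per 1000000 UMIs of the class; interval 1090 to 1204) in WT Tregs and 1122 CPM in Siah2-/- Tregs, against 274 and 98.8 CPM in Foxp3-negative CD4 T barcodes, which met the rule but for a Cd4 UMI in place of Foxp3. Il2ra was at 406 and 478 CPM in Tregs, compared with 100 and 62.9 CPM in these CD4 T barcodes. Ctla4 was at 939 and 928 CPM, against 287 and 400 CPM. All 3 markers were detected together in 163 WT members (52.1%) and 84 Siah2-/- members (50.3%), and 1 WT member had none of them. To compare shares of cells at equal depth, each barcode was thinned at random to 2000 UMIs. Then 50.8% of WT and 56.9% of Siah2-/- Tregs had an Il2ra UMI, 66.5% and 61.1% a Ctla4 UMI, and 87.5% and 77.2% an Ikzf2 UMI. Among barcodes of other types, which should lack it, an Il2ra UMI was left in 0.602% and 0.930% of NK-type and 0.878% and 0.590% of macrophage-type barcodes, chosen by an Ncr1 or a Csf1r UMI with no CD3 UMI. Ctla4 and Ikzf2 had a higher background in NK-type barcodes, with a Ctla4 UMI in 5.17% and 12.2% and an Ikzf2 UMI in 4.69% and 5.58%. In macrophage-type barcodes these were 0.403% and 1.59% for Ctla4 and 0.622% and 0.649% for Ikzf2. Each of the 3 shares of Tregs was above these backgrounds in both libraries.

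The other markers were also detected in many members with a single Foxp3 UMI. In WT, Ikzf2 was detected after thinning in 83.2% of 125 Tregs with 1 Foxp3 UMI, 88.0% of 92 with 2 and 92.7% of 96 with 3 or more. In Siah2-/- the shares were 69.8% of 53, 87.5% of 40 and 77.0% of 74. Il2ra was at 49.6%, 53.3% and 50.0% in WT and at 49.1%, 52.5% and 64.9% in Siah2-/-, and Ctla4 at 64.8%, 73.9% and 61.5% and at 60.4%, 55.0% and 64.9%. Before thinning, a Foxp3 UMI stood in 0.241% and 0.775% of NK-type and 0.915% and 0.945% of macrophage-type barcodes, whose median depths were 5674 and 4866 UMIs and 7846 and 7433 UMIs. It stood in 6.57% and 4.52% of CD8 T barcodes, which the rule leaves out.

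Tregs made up a smaller part of the T cells in the library labelled Siah2-/-. T barcodes were kept barcodes with at least 2 CD3 UMIs and none of Csf1r and Ncr1. Tregs were 313 of 2315 of them in WT (13.5%, Clopper-Pearson interval 12.2 to 15.0) and 167 of 2805 in Siah2-/- (5.95%, 5.11 to 6.89), a log2 ratio of −1.18 (Katz interval −1.44 to −0.92). Of all kept barcodes they were 3.59% and 1.98% (log2 −0.86, −1.12 to −0.59). Because a deeper barcode has more chance of a Foxp3 UMI, and also of a CD8 UMI that removes it, all barcodes were also thinned before the rule was applied. The thinned shares were 252 of 2492 T barcodes (10.1%) and 145 of 3113 (4.66%), with a log2 ratio of −1.12 (−1.40 to −0.83). The lower share was thus present at equal depth as well. Foxp3-negative CD4 T barcodes stood the other way, at 9.89% of T barcodes in WT and 19.5% in Siah2-/- (log2 0.98, 0.77 to 1.19).

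The small barcodes held the highest Treg shares. From 2000 to below 3000 UMIs, Tregs were 136 of 491 T barcodes in WT (27.7%) and 33 of 275 in Siah2-/- (12%), a log2 ratio of −1.21 (−1.71 to −0.70). From 3000 to below 4896 UMIs they were 106 of 816 (13.0%) and 87 of 1058 (8.22%), a log2 ratio of −0.66 (−1.05 to −0.27). From 4896 to below 6670 UMIs they were 26 of 389 (6.68%) and 28 of 628 (4.46%), a log2 ratio of −0.58 whose interval of −1.33 to 0.16 reached past 0. From 6670 UMIs up they were 45 of 619 (7.27%) and 19 of 844 (2.25%), a log2 ratio of −1.69 (−2.45 to −0.93). As a part of T barcodes, the share was lower in Siah2-/- in each of the 4 depth bins, with counting error not separating the libraries in the third. As a part of all kept barcodes it was lower in 3 of the 4, and from 4896 to below 6670 UMIs it was 1.62% in WT and 1.73% in Siah2-/- (log2 0.094, −0.67 to 0.86).

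**Figure D1:**
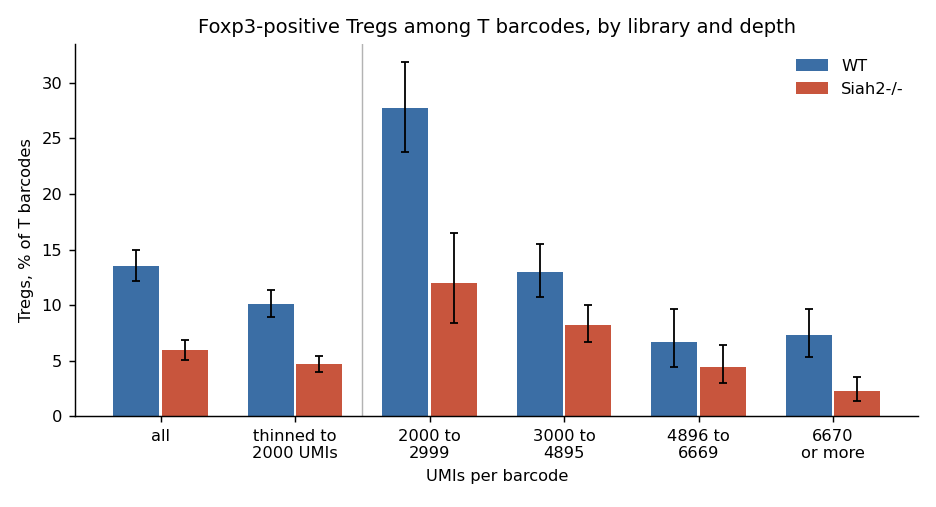
Bars give Tregs as a percentage of T barcodes over all barcodes, after thinning to 2000 UMIs and in each bin of UMIs per barcode, for the WT (blue) and the Siah2-/- library (red), with Clopper-Pearson 95% intervals. The Siah2-/- bar is the lower one in every pair, and the widest gap in percentage points is below 3000 UMIs (27.7% against 12%).

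Siah2 itself gave 7 UMIs in the 313 WT Tregs (5.08 CPM, 2.04 to 10.5) and 9 UMIs in the 167 Tregs of the library labelled Siah2-/- (11.2 CPM, 5.10 to 21.2). Reads of this chemistry come from the 3′ end of the RNA and need not lie in the deleted part, and the counts are no check of the label, while they lay below the level of free RNA (9.15 and 17.2 CPM). Free RNA was read from barcodes with 10 to 100 UMIs, and was estimated from macrophage genes to supply 6.73% of Treg UMIs in WT and 8.03% in Siah2-/-.

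Against Foxp3-negative CD4 T barcodes of the same library, most Treg identity genes were higher in Tregs. The ratio of CPM was computed in each library for 7458 genes with at least 50 UMIs in the compared classes, leaving out genes of the rule. Of these, 161 (2.16%) were at least 2-fold higher in Tregs in both libraries and 173 (2.32%) at least 2-fold lower. Among the 19 Treg identity genes measured there, 12 were at least 2-fold higher and 18 higher by any amount in both libraries, against 37.9% of the 7458 genes higher by any amount in both. The exception was Nrp1 (neuropilin 1), a surface protein of many thymus-derived Tregs, with log2 ratios of −2.46 in WT and −1.996 in Siah2-/-. The cytokine gene Tgfb1, of the effector list, had −0.26 and −0.079. The CD4 T barcodes lack a captured Foxp3 UMI, and since 76.4% of WT and 75.4% of Siah2-/- members kept one after thinning to 2000 UMIs, some Tregs can be among them.

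Genes were ordered by the smaller of their ratios in both libraries, and no list was counted among the highest. Itgb8, the integrin chain that frees TGF-beta from its latent form, was at 34.1 CPM in WT Tregs against 5.12 in CD4 T barcodes (log2 2.74, 1.41 to 4.42) and at 21.1 against 3.23 CPM in Siah2-/- (log2 2.70). Lrrc32 (GARP), which holds latent TGF-beta on the Treg surface, had log2 ratios of 2.28 and 3.54. Itgae (CD103), which binds E-cadherin on epithelium, had 2.25 and 3.63. Klrg1, an inhibitory receptor of differentiated T cells, had 2.25 in WT and 4.38 in Siah2-/-. The larger Klrg1 ratio in Siah2-/- came with a CD4 T level of 16.2 CPM, against 117 CPM in WT. Pde2a, Rnase4, Ltf, Arl5a and Rln3 were also among the 10 highest by this rule, with log2 ratios between 2.14 and 4.54.

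The 10 lowest genes against CD4 T barcodes included several that code for ligands and cytokines of helper T cells. Ccl1, a chemokine of activated T cells, was at 6.53 CPM in WT Tregs against 448 CPM in CD4 T barcodes and at 3.72 against 171 CPM in Siah2-/- (log2 −6.10 and −5.52). Tnfsf8 (CD30 ligand) had −5.76 and −5.45, and Cd40lg (CD40 ligand, the signal of helper cells to B cells and dendritic cells) had −3.99 and −4.05. Cytokine genes of effector helper cells stood the same way, with Ifng at −3.88 and −3.59 and Il17a at −3.67 and −5.08, although Il17a rested on at most 2 Treg UMIs in each library. Of 20 genes for lymphocyte toxins and chemokines, 13 were at least 2-fold lower in Tregs in both libraries and none higher in both. Csf2, Gpm6b, Serpinb1a, Tbc1d4 and Prr7 completed the 10 lowest. No list made of helper cell genes alone was counted, and genes known from helper cells went both ways. Cxcr3 stood at 0.71 and 1.26, Il12rb1 at 0.79 and 0.72 and Gata3 at 0.14 and −0.011. Of 13 genes of the interferon-gamma and IL-12 axis, 6 were higher and 6 lower in Tregs in both libraries. None of the 13 was at least 2-fold higher in both and 3 were at least 2-fold lower.

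**Figure D2:**
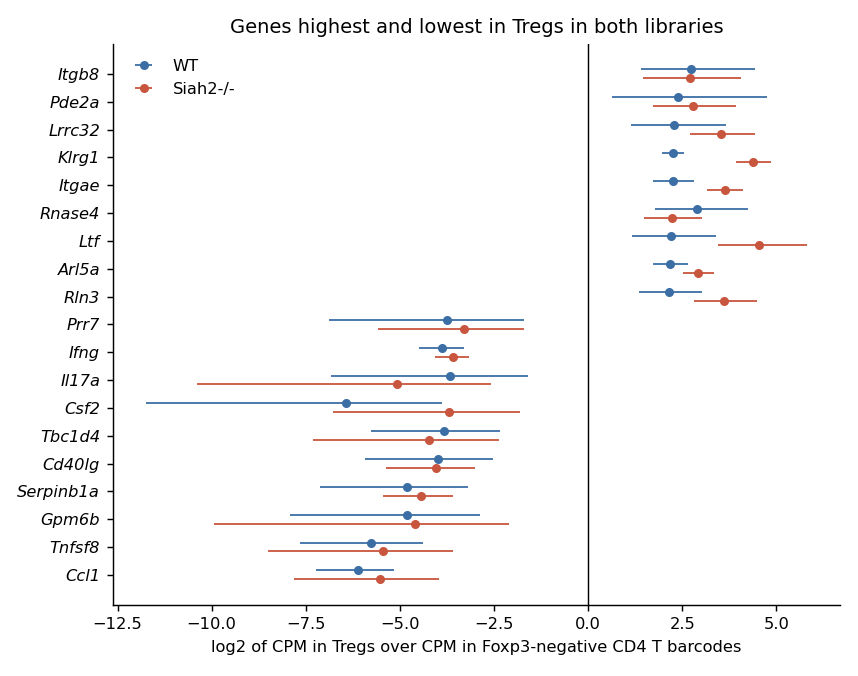
Points give the log2 ratio of CPM of Tregs over Foxp3-negative CD4 T barcodes for 9 of the 10 highest and for the 10 lowest genes, in WT (blue) and Siah2-/- (red), with conditional binomial 95% intervals. These 9 lie above 2 in both libraries, and Ccl1 and Tnfsf8 lie below −5.

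Between the libraries, most genes of Tregs were within 2-fold. Of 4715 genes with at least 50 UMIs in Tregs of both libraries together, 97 (2.06%) were at least 2-fold higher in Siah2-/- and 42 (0.891%) at least 2-fold lower, with a median log2 ratio of −0.01. Across the alternatives the first count ran from 36 to 279 and the second from 4 to 195. By any amount, 2283 of the 4715 genes were higher in Siah2-/- and 2432 lower. The list counts below are read against these values over all genes, and each list's median against −0.01.

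None of the 17 Treg identity genes with 50 UMIs differed 2-fold, and their median log2 ratio was 0.15. Ctla4 (−0.02, −0.15 to 0.11) and Ikzf2 (−0.03, −0.15 to 0.09) were close to the same summed level, with a sign that varied across the alternatives, although the share of thinned Tregs with an Ikzf2 UMI differed by −10.3 percentage points (Newcombe interval −17.9 to −3.26). Receptors of the TNF family differed among themselves. Tnfrsf9 (4-1BB), a mark of recent antigen contact in Tregs, went from 1196 CPM in WT to 1896 CPM in Siah2-/- (log2 0.66, 0.56 to 0.77) and was detected in 78.9% and 89.8% of thinned Tregs. Tnfrsf4 (OX40) was at 2948 and 3362 CPM (log2 0.19), and Tnfrsf18 (GITR) at 2034 and 1939 CPM (−0.07). Icos, a costimulatory receptor, was at 1147 and 1488 CPM (log2 0.38). Lrrc32 had the largest ratio of the list, at 34.8 and 66.9 CPM (log2 0.94, 0.35 to 1.53), and Socs2, a brake on cytokine signals, the smallest (−0.33, −0.65 to −0.02).

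Most effector Treg genes were higher in Siah2-/-. Of 21 measured with 50 UMIs, 14 were higher, 4 at least 2-fold, and 7 were lower, none 2-fold, and their summed CPM was 17250 in WT and 21680 in Siah2-/- (log2 0.33). Il10 lies on chromosome 1 (131019845 to 131024974, plus strand, GRCm38). Its RNA, for the suppressive cytokine IL-10, stood at 148 CPM in WT and 375 CPM in Siah2-/- (log2 1.34, 1.08 to 1.60), with an Il10 UMI in 18.8% and 29.9% of thinned Tregs. Areg, a growth factor that Tregs make in tissue repair, stood at 79.8 and 204 CPM (log2 1.36, 1.00 to 1.72), with 9.90% and 14.4% of thinned Tregs. Lag3, an inhibitory receptor for MHC class II, stood at 345 and 760 CPM (log2 1.14). Penk, the enkephalin precursor, stood at 105 and 230 CPM, but a single cell held 68.3% of its Siah2-/- UMIs. Gzmb, the granule protease granzyme B, was detected in 93.0% and 92.2% of thinned Tregs and stood at 4758 and 6655 CPM (log2 0.48, 0.43 to 0.54). The Il10, Areg and Gzmb levels lay above the free RNA levels of 28.8 and 31.4 CPM, 13.1 and 10.5 CPM and 1231 and 1714 CPM.

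Klrg1 was the lowest of the 7 lower genes. The gene lies on chromosome 6 (122270596 to 122282882, minus strand, GRCm38), and its RNA stood at 555 CPM in WT Tregs and 336 CPM in Siah2-/- Tregs (log2 −0.73, −0.93 to −0.52). A Klrg1 UMI was present in 158 of 313 thinned WT Tregs (50.5%) and 59 of 167 thinned Siah2-/- Tregs (35.3%), a difference of −15.1 percentage points (−23.9 to −5.84). The inhibitory receptor gene Havcr2 stood at −0.51 (−1.20 to 0.15), Ebi3, a subunit of IL-35, at −0.39 (−0.83 to 0.034) and Il1r2, a decoy receptor for IL-1, at −0.21 (−0.73 to 0.29). Irf4, a transcription factor of effector Tregs, had the lowest ratio of the whole list (−1.29, −2.86 to 0.033) but only 25 and 6 UMIs, below the minimum of 50. Il10 was detected more often in Tregs with Klrg1 than in Tregs without it, as a description of these cells. It was present in 24.1% of WT Tregs with a Klrg1 UMI and 13.5% of those without, and in 37.3% and 25.9% in Siah2-/-.

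By summed level, the Klrg1 and Il10 ratios had the same sign in small and in large Tregs. Klrg1 had log2 ratios of −0.73 in small and −0.71 in large Tregs, Il10 1.33 and 1.41, Areg 1.62 and 0.90, and Gzmb 0.57 and 0.38. The shares of thinned cells did not separate the libraries in every size. For Klrg1 the difference was −16.2 points (−26.3 to −5.37) in small and −11.7 points (−28.4 to 6.45) in large Tregs, and for Il10 8.09 points (−1.16 to 17.9) and 20.7 points (5.77 to 35.9). The same genes were then read in the other T cells. Il10 was also higher in Siah2-/- among Foxp3-negative CD4 T barcodes (84.0 and 151 CPM, log2 0.85), and Klrg1 was lower there (117 and 16.2 CPM, log2 −2.85). Gzmb stood lower in those CD4 T barcodes (1212 and 895 CPM, log2 −0.44) and higher in CD8 T barcodes (2529 and 4571 CPM, log2 0.85). Ctla4 had a log2 ratio of −0.02 in Tregs, 0.48 in CD4 T barcodes and 1.55 in CD8 T barcodes (64.2 and 188 CPM). Whether Tregs differed from the other T cells in these ratios was not tested, since there was 1 library per genotype.

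**Figure D3:**
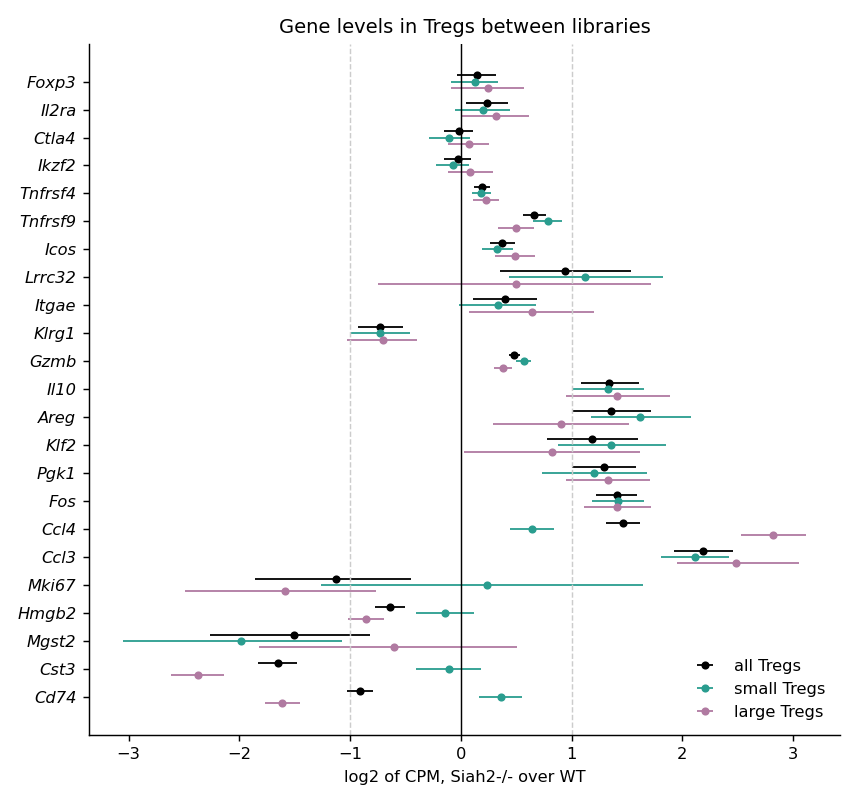
Points give the log2 ratio of CPM, Siah2-/- over WT, of 23 genes in all (black), small (teal) and large (purple) Tregs, with conditional binomial 95% intervals that cover counting error only and dashed lines at 2-fold. Klrg1 lies near −0.7 and Il10 and Fos near 1.4 in all 3, whereas Mki67, Cst3 and Cd74 part by size.

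Genes of the resting and circulating state were mostly higher in Siah2-/- Tregs as well. Of 10 measured, 8 were higher and 1, Klf2, at least 2-fold. Klf2, a transcription factor of T cells that leave tissue, stood at 65.3 and 149 CPM (log2 1.19, 0.78 to 1.60), with free RNA at 128 and 258 CPM. Its log2 ratio was 0.97 in Foxp3-negative CD4 T and 1.21 in CD8 T barcodes. Il7r, the IL-7 receptor chain that Tregs usually keep low, was at 176 and 224 CPM (log2 0.35).

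Most signalling genes were somewhat higher in Siah2-/-, and few reached 2-fold. Of 14 genes of T cell receptor and NF-kB activation, 10 were higher and 1 was 2-fold higher, the NF-kB inhibitor Tnfaip3 (A20) at 71.9 and 147 CPM (log2 1.04), and the median was 0.19. Of 11 IL-2 and STAT5 genes, 9 were higher (summed log2 0.29), and Socs3, a brake on STAT3 signals, reached 2-fold (63.9 and 129 CPM, log2 1.01). Pim1, a STAT5 target kinase, was at 725 and 991 CPM (log2 0.45). Checkpoint and costimulation genes had a median of 0.31 over 6 genes, 5 of them higher and none 2-fold, led by Cd28 (399 and 601 CPM, log2 0.59). All 4 chemokine receptors were higher (summed log2 0.36), and Cxcr6, which binds CXCL16, was 2-fold higher (95.1 and 238 CPM, log2 1.32), while Ccr2 stood at log2 0.17.

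Interferon response genes of all Tregs together stood at nearly the same level in both libraries. All 24 interferon-gamma response genes were within 2-fold, with a median of 0.04 and summed CPM of 30030 and 31110. By size the log2 ratio of the sum was −0.023 (−0.052 to 0.0068) in small and 0.18 (0.14 to 0.21) in large Tregs, and for the type I interferon genes −0.076 and 0.20. Of 30 type I interferon genes, Ifitm1 alone was 2-fold apart (160 and 343 CPM), and single cells held 51.6% and 38.6% of its UMIs in WT and Siah2-/- while free RNA stood at 490 and 1512 CPM. Of 11 genes of the interferon-gamma axis, Ifng alone reached 2-fold. The receptor chain Ifngr1 was at 1146 and 1253 CPM (log2 0.13, 0.01 to 0.24) and the Th1-type chemokine receptor Cxcr3 at 395 and 405 CPM (0.04). Ifng itself had 27 UMIs in WT and 43 in Siah2-/- Tregs (19.6 and 53.3 CPM), below free RNA at 86.5 and 190 CPM, and was present in 4.47% and 4.79% of thinned Tregs. By size it was present in 13 of 242 and 3 of 120 small Tregs (5.37% and 2.5%; log2 ratio of CPM 0.27, −0.78 to 1.28) and in 1 of 71 and 5 of 47 large Tregs (1.41% and 10.6%; log2 3.20, 1.81 to 4.93), a difference in large Tregs of 9.23 points (0.63 to 21.2). Its log2 ratio of 1.44 was −0.34 with the first seed and 1.25 with the other when barcodes were thinned before the rule. Against CD4 T barcodes, 22 of the 24 response genes were higher in Tregs in both libraries, 2 of them 2-fold, beside 37.9% and 2.16% of all genes.

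Most glycolysis genes were higher in Siah2-/- Tregs and most oxidative phosphorylation genes lower, both by small amounts. Of 15 glycolysis genes, 13 were higher with a median of 0.08. Their sum was 10900 and 12340 CPM (log2 0.18), with a log2 ratio of 0.32 (0.26 to 0.37) in small and 0.053 (0.0037 to 0.10) in large Tregs. Pgk1, the kinase of the first ATP-forming step, was the 1 gene 2-fold higher, at 122 and 299 CPM (log2 1.29, 1.00 to 1.58). Its ratio was 1.20 in small and 1.33 in large Tregs, 1.30 in Foxp3-negative CD4 T and 1.22 in CD8 T barcodes. Of 25 oxidative phosphorylation genes, 19 were lower and none 2-fold (median −0.08).

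Immediate early genes, which cell isolation can also induce, were higher in Siah2-/- Tregs. Of 14 genes of this list, 12 were higher and 2 at least 2-fold (median 0.67). Fos stood at 290 and 769 CPM in Tregs (log2 1.41, 1.22 to 1.59), with log2 ratios of 1.31 in CD4 T and 1.69 in CD8 T barcodes, and the free RNA levels were 753 and 1357 CPM. The heat shock gene Hspa8 stood at 2457 and 2220 CPM (log2 −0.15). The part of free RNA and of cell isolation in these values was not tested.

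Of 7 toxin and chemokine genes, 2 chemokine genes were 2-fold higher and the others were not. Ccl3 stood at 116 and 529 CPM (log2 2.19) and Ccl4 at 406 and 1120 CPM (log2 1.46, 1.31 to 1.62), whereas Ccl5 stood at 860 and 598 CPM (log2 −0.52, −0.68 to −0.37). Both were also higher in Siah2-/- in other T cells. In Foxp3-negative CD4 T barcodes Ccl3 stood at 135 and 800 CPM (log2 2.565) and Ccl4 at 528 and 2038 CPM (log2 1.95). In CD8 T barcodes the log2 ratios were 0.40 and 0.33. For Ccl4 the log2 ratio was 0.64 in small and 2.82 in large Tregs, with free RNA at 681 and 1072 CPM. One cell held 21.3% of the Ccl3 UMIs in Siah2-/-, and from 6670 UMIs up the Ccl3 ratio turned to −3.68. NK cells also express Gzmb, Ccl3 and Ccl4, and NK marker RNA was higher in small Siah2-/- Tregs as well. The 10 NK markers included Gzma and Prf1, which are also in the list of toxins and chemokines. Gzma alone gave 100 of their 184 UMIs in WT and 61 of 139 in Siah2-/-. It was present in 7.67% and 17.4% of thinned Tregs. The 10 NK markers summed to 68.4 and 154 CPM in small Tregs (log2 1.18, 0.62 to 1.74) and to 207 and 191 CPM in large Tregs (log2 −0.12, −0.55 to 0.30), and a UMI of them was present in 13.4% and 28.7% of thinned Tregs. Their part in the Gzmb, Ccl3 and Ccl4 values was not tested.

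Over all genes with no dominant cell, the highest ratios fell partly on entries named as pseudogenes or predicted genes, whose reads may be shared with near-identical genes. Gm12840 had 6 UMIs in WT and 49 in Siah2-/- (log2 3.80, 2.58 to 5.32), and Gm10116 had 18 and 49 (2.22). Gm10036 (1.70), Rpl36-ps3 (1.65) and Gm6563 (1.57) were of the same kind. Among the other genes, Csf1, the growth factor of macrophages, stood at 17.4 and 61.9 CPM (log2 1.83, 1.10 to 2.60), and Furin, a protease that matures TGF-beta, at 31.9 and 83.0 CPM (1.38). Csf1 had ratios of 0.99 in CD4 T and 1.05 in CD8 T barcodes. The lowest ratios were those of the exonuclease gene Eri1 (49.4 and 16.1 CPM, log2 −1.62), Mgst2 (74.0 and 26.0 CPM, −1.51), which joins glutathione to lipids, and the spindle checkpoint gene Mad2l1 (42.1 and 16.1 CPM, −1.39). Mgst2 was also lower in CD4 T (−2.62) and CD8 T barcodes (−0.91), whereas Eri1 stood at −0.18 and −0.05 there. Cd86, a ligand of Ctla4 better known from antigen-presenting cells, was at 51.5 and 22.3 CPM (−1.21), against free RNA at 70.6 and 97.9 CPM. Prpf31, Rnaseh2a, Golga4, Exosc1, Myl4 and Tprkb completed the 10 lowest, with ratios from −1.29 to −1.14.

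Genes of cell division were lower in Siah2-/- Tregs, and this lay in the large cells. All 29 G2/M genes with 50 UMIs were lower (median −0.55), and 5 at least 2-fold, with summed CPM of 4126 in WT and 2711 in Siah2-/- (log2 −0.61, −0.68 to −0.53). Those 5 were Nusap1 (−1.92), a spindle protein, Cdca8 (−1.13), Mki67 (−1.13), Cenpf (−1.11) and the mitotic kinase Cdk1 (−1.01). A single cell held 30.8% of the Siah2-/- UMIs of Nusap1, 43.8% of those of Cenpf, 26.7% of those of Cdk1 and 26.1% of those of Mki67. Of 22 S phase genes, 19 were lower and none 2-fold (median −0.20). The G2/M genes are transcribed together in the same dividing cells, so that they are not 29 separate observations. In small Tregs the G2/M sum was 1542 CPM in WT and 1593 CPM in Siah2-/- (log2 0.047, −0.093 to 0.19), and in large Tregs 7047 and 3889 CPM (log2 −0.86, −0.94 to −0.77). S phase genes had a ratio of 0.30 in small and −0.51 in large Tregs. With each cell of the same members weighing the same, the G2/M ratio was −0.41 and the S phase ratio −0.093. Thinning every barcode to 2000 UMIs before the rule also changed the members, to 252 WT and 145 Siah2-/- Tregs. The G2/M ratio was then −0.15 and the S phase ratio 0.063, and with the other seed −0.22 and 0.13.

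Cell by cell at equal depth, the difference depended on the limit. After thinning to 2000 UMIs, the main limit of 5 UMIs of the 95 S phase and G2/M genes was reached by 52.4% of WT and 46.1% of Siah2-/- Tregs, a difference of −6.29 percentage points whose interval of −15.5 to 3.08 included 0. By this limit 86 and 47 Tregs lay next to it, at 4 or 5 UMIs. With barcodes thinned before the rule the difference was −6.26 points with the first seed and −0.34 with the other, and without thinning it was 3.48 points. In small Tregs it was −2.94 points (−13.6 to 7.93) and in large Tregs −19.4 points (−36.0 to −1.54).

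The alternative limit of 10 cycle UMIs set the dividing cells further apart from the rest. It was reached by 43 of 313 WT Tregs (13.7%) and 12 of 167 Siah2-/- Tregs (7.19%), a difference of −6.55 points (−11.8 to −0.56). Among small Tregs these were 7 of 242 and 3 of 120, and among large Tregs 36 of 71 (50.7%) and 9 of 47 (19.1%), a difference of −31.6 points (−45.8 to −14.0). The depth within the large class differed, so it was split again. From 4896 to below 6670 UMIs there were 7 of 26 and 3 of 28, and from 6670 UMIs up 29 of 45 (64.4%) and 6 of 19 (31.6%), differences of −16.2 points (−36.6 to 4.92) and −32.9 points (−53.2 to −6.11). Barcodes at this limit were thus rare among the small Tregs of both libraries, and the difference between libraries rested on 36 and 9 large cells.

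At 10 UMIs the large CD8 T barcodes stood at 43.9% and 25.4% and the large Foxp3-negative CD4 T barcodes at 30.6% and 12.1%. Among large cells, a lower share in Siah2-/- was thus not seen in Tregs alone. Over all sizes, CD8 T barcodes stood at 29.4% and 19.3%. The CD4 T barcodes of all sizes stood at 6.55% and 6.75%, a difference of 0.20 points (−4.17 to 3.71). Of the genes that set the pace of the cycle, 14 were measured and 1, the cyclin gene Ccna2, was 2-fold lower (59.5 and 29.7 CPM), while Ccnd2 (−0.07) and Ccnd3 (0.13) were close to the same. Cdkn1b, which codes for the Cdk inhibitor p27, was at 73.3 and 68.1 CPM (−0.11, −0.61 to 0.38), and Cdkn1a, for p21, at 107 and 155 CPM (0.53, 0.17 to 0.88).

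**Figure D4:**
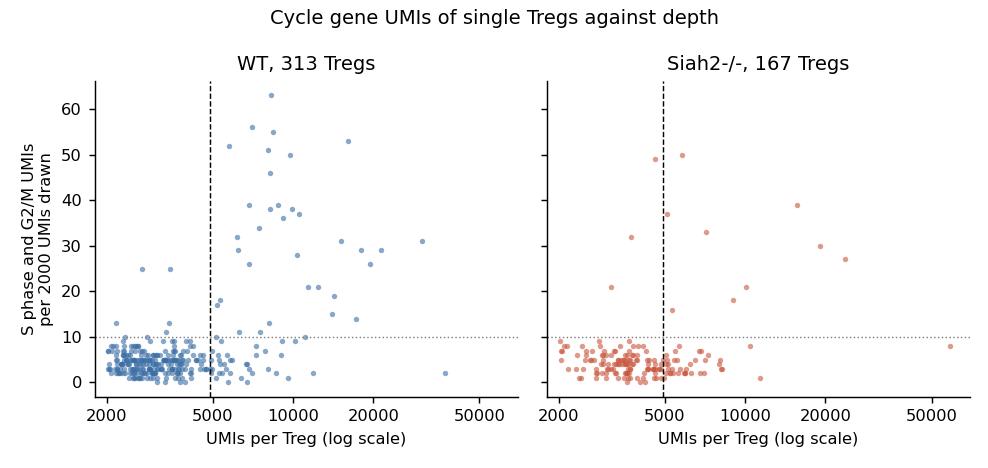
UMIs of S phase and G2/M genes per 2000 UMIs drawn from each Treg (vertical) against its full UMI count (horizontal, log scale), WT on the left and Siah2-/- on the right, with the limits of 10 cycle UMIs (dotted) and 4896 UMIs (dashed). Points on or above the dotted line number 43 in WT and 12 in Siah2-/-, of which 36 and 9 lie right of the dashed line.

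Between small and large Tregs, part of the genes differed in both libraries. Of 4715 genes, 99 (2.1%) were at least 2-fold higher in small than in large Tregs in both libraries and 171 (3.63%) at least 2-fold lower. More genes passed in 1 library alone, with 208 in WT alone and 257 in Siah2-/- alone higher in small Tregs and 179 and 145 lower. Of the genes lower in small Tregs, many belonged to the cell cycle, with 20 of 29 G2/M genes and 10 of 22 S phase genes at least 2-fold lower in both. Ube2c, which tags mitotic proteins for degradation, was at 9.57 and 298 CPM in small and large WT Tregs and at 7.24 and 158 CPM in Siah2-/- (log2 −4.96 and −4.45), although 1 cell held 69.2% of its Siah2-/- UMIs. Ccnb2 (cyclin B2) had −4.57 and −3.85 and Spc24, a kinetochore gene, −4.16 and −3.72. Ltc4s and Prkcdbp were as low but rested on 1 cell in each library, which held between 72.7% and 89.5% of their UMIs.

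Most Treg identity and resting genes were higher per UMI in small Tregs, where 39.1% of all 4715 genes were higher by any amount in both libraries. Of 17 Treg identity genes, 16 were higher in small Tregs in both libraries and 4 at least 2-fold. Of 10 resting genes, 9 were higher in both and 3 at least 2-fold, and 21 of 24 interferon-gamma response genes were higher with none 2-fold. Effector genes were mixed, with 11 of 21 higher and 7 lower in small Tregs in both libraries, and their sum was 16360 CPM in small and 18250 in large WT Tregs and 20420 and 23000 CPM in Siah2-/-. Foxp3-negative CD4 T barcodes also had higher sums in small than in large cells, with Treg identity at 6631 and 3496 CPM in WT and 5409 and 4568 CPM in Siah2-/-, resting genes at 1222 and 748 CPM and 1477 and 940 CPM, and interferon-gamma response genes at 26550 and 17670 CPM and 25280 and 22770 CPM. Il7r was at 267 CPM in small and 72.7 CPM in large WT Tregs and at 345 and 96.7 CPM in Siah2-/- (log2 1.88 and 1.84), and in Foxp3-negative CD4 T barcodes its ratios were 2.46 and 1.04. Ly6c1, a surface protein of resting and memory T cells, had 1.97 and 1.96. Ikzf2 was at 1451 and 801 CPM in WT and 1381 and 850 CPM in Siah2-/-, and Gzmb at 5277 and 4171 CPM and 7828 and 5419 CPM. The remaining highest entries were the predicted genes Gm20186 and Gm26740 and the mitochondrial thymidine kinase gene Tk2, with log2 ratios from 1.82 to 2.92. Since size was set by UMIs, fewer captured molecules and less RNA per cell cannot be told apart here. With at most 2 UMIs of 5 macrophage genes allowed per Treg, 22 WT and 10 Siah2-/- large Tregs were left and the 171 lower genes became 11. Without the largest Treg of each library they were 111.

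**Figure D5:**
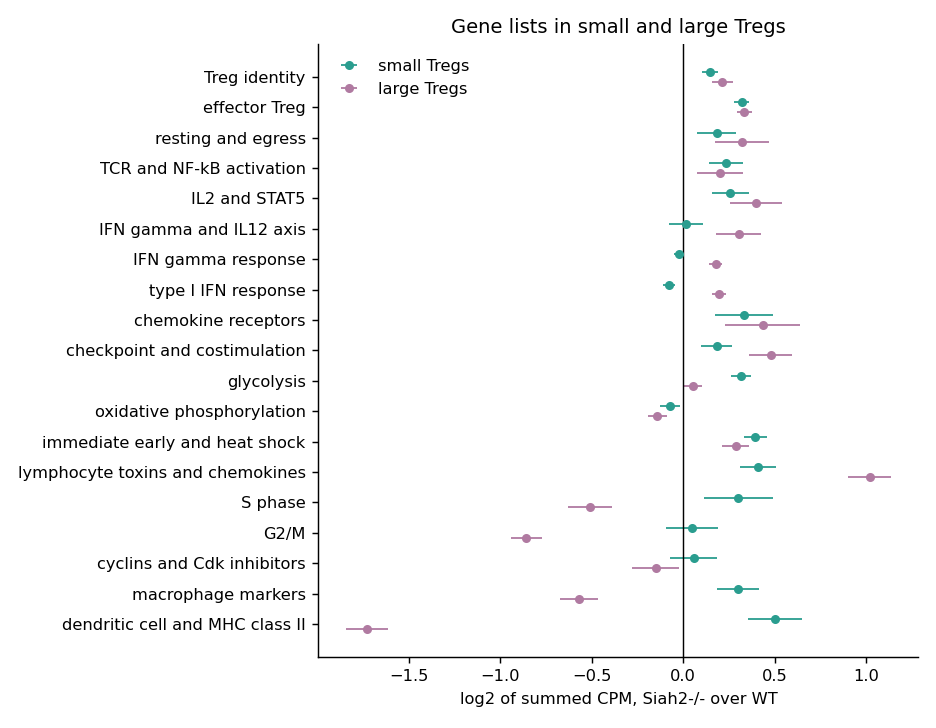
Log2 ratio of summed CPM, Siah2-/- over WT, for gene lists in small Tregs (teal) and large Tregs (purple), with conditional binomial 95% intervals that cover counting error only. Effector genes lie at 0.32 and 0.33 in both sizes, whereas G2/M (0.047 and −0.86) and dendritic cell and MHC class II genes (0.50 and −1.73) part by size.

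RNA of other cell types was present in the Tregs and differed by size. The 14 macrophage markers summed to 2976 CPM in WT and 2615 CPM in Siah2-/- Tregs (free RNA 20880 and 21910 CPM), with none at 0, a log2 ratio of 0.30 in small and −0.57 in large Tregs and 18 and 7 thinned Tregs with 10 or more such UMIs. Of the 10 dendritic cell and MHC class II genes, Clec9a was at 0 in both libraries and Flt3, Xcr1 and Cd209a in Siah2-/-. Their sum was 3513 and 1759 CPM, and 5 cells held 67.5% of the WT UMIs. Cd74, the MHC class II chaperone, was at 736 and 944 CPM in small Tregs (log2 0.36) and at 3071 and 1005 CPM in large Tregs (log2 −1.61). These UMIs thus sat in a few large WT barcodes, the size class that also held the cell cycle difference. The part of such barcodes in the cell cycle values was not tested. With at most 2 UMIs of 5 macrophage genes per Treg, the G2/M ratio over all 186 WT and 61 Siah2-/- Tregs left was −0.80. Of the 10 NK markers none was at 0, and they summed to 134 and 172 CPM. The B cell (Ms4a1 at 0 in both), gamma delta T and red cell markers summed to at most 18.9 CPM each. Only 2 of the listed gamma delta T genes and 5 of the listed B cell genes were among the measured genes. The gamma delta sum therefore cannot show whether such cells were present. Of the melanocyte genes, Tyrp1 and Dct were at 0 in both libraries, Pmel in WT only and Mlana in Siah2-/- only. Mlana thus had UMIs in WT Tregs and Pmel in Siah2-/- Tregs. One cell held 75.9% of the WT and 90.3% of the Siah2-/- UMIs of the CD45-negative cell markers (136 and 283 CPM).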

How the data were processed

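The authors deposited raw UMI counts per gene and barcode for 1 library per genotype, made with bcl2fastq and Cell Ranger on mm10 (versions not given in the sources used here), with no filter on barcodes. A deposited table of natural log normalized values was used only for the names of the cells the authors kept, and a deposited count table of those cells was not used. Members were gated as the report states, with no clustering and no doublet caller. UMIs were summed over the cells of a class and divided by their total to give CPM. Ratios between classes carry conditional binomial 95% intervals, levels Poisson intervals, shares Clopper-Pearson intervals, ratios of shares Katz intervals and differences of shares Newcombe intervals. For a test-free call, a gene with 50 or more UMIs was counted at 2-fold. Thinning drew 2000 UMIs per barcode without replacement (seed 11, repeated with 12). Free RNA came from barcodes with 10 to 100 UMIs. The code was tested on simulated data.

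The members and the 24 gene lists were chosen with earlier results of these data known. Genes named were the 3 other markers, the highest, lowest and most abundant member of each list (20 UMIs or more), the 10 highest and 10 lowest ratios between libraries with no cell over 20% of the UMIs, the 10 highest and 10 lowest against Foxp3-negative CD4 T barcodes, and the 5 each way between small and large Tregs. Other list members were named after their values were seen, the list members past 2-fold among them. A few listed genes are not reported here. Alternatives changed the UMI, Foxp3, CD3, macrophage and mitochondrial limits, thinning, weighting, scaling (TMM of edgeR 4.0.16, median ratios of DESeq2 1.42.0), free RNA, single dominant cells and the UMI minimum. Leaving out the largest Treg and using small Tregs only were added after seeing the data. Analyses used Python 3.11.15, numpy 2.4.6, scipy 1.17.1 and R 4.3.3, and positions came from GENCODE M21 (GRCm38).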

Additional observations from a re-analysis of the deposited data

How the results depend on the processing

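The lower Treg share of T barcodes held its sign under 13 of 13 alternatives (log2 −1.69 to −0.74), as did the share of kept barcodes (−1.56 to −0.27). The effector list held its sign under 19 of 19 (0.18 to 0.40), the resting and egress list under 19 of 19, the G2/M list under 18, the IFN-gamma response list under 17 and the S phase list under 16. Klrg1 (−1.37 to −0.32), Il10 (0.99 to 3.80), Areg (0.82 to 1.85), Gzmb (0.18 to 0.78), Fos (1.27 to 1.66), Pgk1 (1.03 to 1.62) and Klf2 (0.75 to 1.61) did so under 19 each. Of the values of named genes, 640 stayed within counting error and the others moved by more. The sign was opposite in 31 of the 773. Of these, 9 were of Ctla4 (−0.25 to 0.49) and 8 of Ikzf2 (−0.25 to 0.51), whose main values were near 0, and the other 14 are given below. The cause of each move was not tested. The counts rest on 1 library per genotype with 313 and 167 Tregs, and 362 of the 480 had fewer than 4896 UMIs. Thinning needs 2000 UMIs, so the cycling share was not computed from 1000 UMIs, and small Tregs were not set against large ones where no small or no full-depth cells were left. No paired analysis was possible because the labels give no replicate numbers and there was 1 library per genotype.

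The unaltered values were log2 ratios of −1.18 (share of T barcodes), −0.86 (share of kept barcodes), −0.26 (S phase), −0.61 (G2/M), 0.051 (IFN-gamma response), 0.33 (effector) and 0.22 (resting and egress), a cycling difference of −6.29 percentage points at 5 UMIs, and 97 higher and 42 lower genes between libraries, 161 and 173 against CD4 T barcodes and 99 and 171 between sizes. From 4896 UMIs up (71 and 47 Tregs), the share of kept barcodes was −0.48, cycling −19.4 points, S phase −0.51, G2/M −0.86, IFN-gamma response 0.18, resting 0.32, lower genes 67, and genes against CD4 T barcodes 93 higher and 106 lower. From 6670 UMIs up (45 and 19 Tregs), the share of T barcodes was −1.69, G2/M −0.72, resting 0.056, higher genes 62, genes against CD4 T barcodes 58 higher and 67 lower, and Ccl3 (−3.68), Furin (−0.77), Itgae (−0.11) and Pim1 (−0.041) changed sign. With only the authors' cells (45 and 46 Tregs), the share of kept barcodes was −0.27, cycling −27.8 points, S phase −0.79, G2/M −0.96, IFN-gamma response 0.36, effector 0.27, resting 0.70, lower genes 98, genes against CD4 T barcodes 100 higher and 110 lower, and Socs2 0.10.

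With 2 or more Foxp3 UMIs (188 and 114 Tregs), higher genes were 64 and lower genes 80, S phase −0.55, G2/M −0.86, IFN-gamma response 0.14, effector 0.40, resting 0.35, and genes between sizes 47 higher and 87 lower. With 1 CD3 UMI, the IFN-gamma response was 0.091, effector 0.27 and lower genes between sizes 270. With 3 CD3 UMIs, lower genes were 68, S phase −0.37, IFN-gamma response 0.10, effector 0.28 and resting 0.32. With at most 2 UMIs of 5 macrophage genes (186 and 61 Tregs), the share of T barcodes was −0.74, of kept barcodes −1.56, higher genes 56, S phase −0.53, G2/M −0.80, effector 0.18, lower genes against CD4 T barcodes 104, genes between sizes 50 higher and 11 lower, Cd74 0.42 and Ifng −0.28. Without the 2% of barcodes with most genes, lower genes were 67, S phase −0.38, IFN-gamma response 0.10, effector 0.28 and resting 0.31. At 5% mitochondrial UMIs, effector was 0.36.

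Thinned before the rule, with either seed, higher genes were 42 and 36, lower genes 13 and 22, S phase 0.063 and 0.13, G2/M −0.15 and −0.22, IFN-gamma response −0.023 and 0.017, effector 0.26 and 0.38, lower genes against CD4 T barcodes 105 and 100 and Cd74 0.52 and 0.26, with Ifng −0.34 and Rnaseh2a 0.80 under the first and Mki67 0.48 under the other. Not thinned, cycling was 3.48 points. With each cell weighing the same, S phase was −0.093, G2/M −0.41 and IFN-gamma response 0.0093. TMM factors gave 0.013 for IFN-gamma response and 0.29 for effector, median ratio factors 0.017 and 0.30. With free RNA subtracted, lower genes were 80 and effector 0.37. Without the top cell of each gene, lower genes were 83, S phase −0.43, G2/M −0.75 and effector 0.22. At a minimum of 20 UMIs, 279 genes were higher and 195 lower, and at 200 UMIs 37 and 4. Chosen after seeing the data, leaving out the largest Treg of each library gave S phase −0.41, IFN-gamma response 0.088 and 111 lower genes between sizes, and small Tregs alone gave 63 higher and 19 lower genes, S phase 0.30, G2/M 0.047, IFN-gamma response −0.023, Cd74 0.36 and Mki67 0.23.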
